A study of Mus musculus with 7 samples.

Results

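The replication-dependent histone genes of the mouse supply the bulk of the histones that package newly made DNA. They were taken here as every gene of the deposited table whose GENCODE M21 symbol begins with Hist1h, Hist2h, Hist3h or Hist4h, which gave 68 of the 48795 genes. The annotation holds 70 such genes, and Hist1h2bh and Hist1h2bm were not analysed here. The 68 genes comprised 6 for the linker histone H1, 20 for H2A, 17 for H2B, 12 for H3 and 13 for H4. By cluster, 54 lay in Hist1 on chromosome 13, 10 in Hist2 on chromosome 3, 3 in Hist3 on chromosome 11 and 1 in Hist4 on chromosome 6, and 65 were annotated as protein coding and 3 as pseudogenes.

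Each nucleosome wraps DNA around an octamer of the core histones H2A, H2B, H3 and H4, and the linker histone H1 binds where the DNA enters and leaves. Cells that copy their DNA need new histones in step with it, so these genes are switched on as S phase begins, and their mRNAs are degraded when DNA synthesis stops. Their mRNAs mostly end in a stem-loop instead of a poly(A) tail. The stem-loop is bound by the stem-loop binding protein SLBP, and the 3′ end is cut with the help of the U7 small nuclear RNA. Antibody-secreting cells pass through a cycling plasmablast stage, whereas memory B cells are known as largely resting cells.

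Libraries came from spleens of female wild-type C57BL/6 mice aged 8 to 12 weeks that had received sheep red blood cells intravenously 10 days earlier, with no engineered allele in either group. Memory B cells (MBCs, 3 libraries) were sorted as B220+ CD138- IgD- cells positive for CD38 and CD273, and plasma cells (PCs, 4 libraries) as B220-low CD138+ IgD- cells, in both cases from suspensions passed over CD43 beads. Bulk RNA was amplified with a Nugen kit and sequenced on an Illumina HiSeq. Libraries are written MBC1 to MBC3 and PC1 to PC4 after their replicate numbers. The labels do not say that replicates are separate mice, so the p-values below measure the spread between these libraries. MBC1 and PC1, MBC2 and PC3, and MBC3 and PC4 each share a title code whose meaning the labels do not give, and the code of the last pair has a prefix of its own.

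Values are TPM, a share of transcripts in which reads are divided by transcript length and by the library's sum. Immunoglobulin genes took 49.4% to 55.9% of the TPM of PCs and 1.65% to 3.16% of that of MBCs, which lowers every other gene in PCs. Levels are therefore also given as scaled TPM, in which a library's values were divided by a size factor, the median over the 9305 genes above 0 in all libraries of its value relative to their geometric mean. Read totals are not part of TPM. The floor of 3 reads on a transcript of 1 kb was estimated at 0.260 to 0.481 TPM in MBCs and 0.183 to 0.319 TPM in PCs. All 6 PC markers were called higher in PCs.

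The library labelled MBC3 stood apart from its group. All 6 germinal center (GC) B cell markers examined were highest in it, and Cd38, which encodes a marker used to sort MBCs, was at 6.77 scaled TPM there against 130 in MBC1 and 186 in MBC2. The fits are therefore given with and without MBC3. MBC2 also carried an erythroid signal, with 5 erythroid markers summing to 2897 scaled TPM against 2.60 in MBC1 and 0.320 to 72.6 in the other libraries, and the part of this in the histone values was not tested. T cell markers summed to 0 in MBC1 and MBC2, 1.08 in MBC3 and 14.6 to 34.6 scaled TPM in PCs, and myeloid and platelet markers to at most 28.4 and 4.58 scaled TPM in any library, and the part of T cells was likewise not tested.

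The element that sets these mRNAs apart could be read from the annotated transcripts (GENCODE M21, GRCm38). A stem-loop with 6 pairs around a loop of 4 bases was found in the models of 44 of the 68 genes, against 49 of 21836 other protein-coding genes. It took 8 different sequences. The most frequent form was shared by 24 genes of the H1, H2A, H2B and H3 classes, and the form of Hist1h4d below by 7 H4 genes. The following windows, 5′ to 3′ with the stem-loop in capitals, are from the most abundant members of 3 classes and from the members with 2 of the rarer forms.
Hist1h4d: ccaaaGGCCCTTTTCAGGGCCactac
Hist1h1e: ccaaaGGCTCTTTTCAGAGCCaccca
Hist1h2bk: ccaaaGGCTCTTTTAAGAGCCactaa
Hist2h2ac: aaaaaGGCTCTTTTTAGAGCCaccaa
Hist1h3g: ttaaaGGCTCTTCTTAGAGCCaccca
In 23 of the 44 genes the annotated transcript ran on for 60 bases or more past the stem-loop. In the remaining 24 genes the element was not in the model, and nothing is drawn from that.

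Promoters of 60 members could be matched in the RefSeq promoter table (GRCm38.p6; 250 bases before to 50 after the start), and they carried different letters by class. CCAAT, searched on both strands as were all motifs, was in every matched promoter of the H1 (6), H2A (18), H2B (14) and H3 (10) classes but in 3 of 12 of H4, against 37.9% of 27025 promoters in all. GGTCCG was in 11 of 12 H4 promoters and in 1 of the other 48 (an H3 promoter), against 8.39% of all. AAACACA was in 5 of 6 H1 promoters, against 7.14% of all, and the octamer ATTTGCAT in 7 of 18 H2A and 5 of 14 H2B promoters and in none of the other classes, against 1.75%. TATAAA was in 35 of the 60, against 14.2%. No motif of the 5 contains another. The 250 bases upstream of 3 of the most abundant members are shown 5′ to 3′ on the gene's strand with these motifs, in either orientation, in capitals. The first also separates Hist1h2bk from the H2A gene Hist1h2ah, which is read in the opposite direction.
Hist1h2bk, chr13:22035571-22035820, plus strand: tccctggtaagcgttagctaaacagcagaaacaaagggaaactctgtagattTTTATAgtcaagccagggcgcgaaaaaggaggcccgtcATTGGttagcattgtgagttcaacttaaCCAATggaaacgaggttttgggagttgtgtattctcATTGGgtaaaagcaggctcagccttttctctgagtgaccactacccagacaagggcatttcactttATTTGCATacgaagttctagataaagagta
Hist1h4d, chr13:23581318-23581567, plus strand: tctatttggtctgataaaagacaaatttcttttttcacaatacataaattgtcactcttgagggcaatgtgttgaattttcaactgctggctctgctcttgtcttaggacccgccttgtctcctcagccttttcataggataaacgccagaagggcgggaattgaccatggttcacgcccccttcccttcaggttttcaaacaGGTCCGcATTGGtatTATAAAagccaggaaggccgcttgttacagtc
Hist1h1b, chr13:21780626-21780875, minus strand: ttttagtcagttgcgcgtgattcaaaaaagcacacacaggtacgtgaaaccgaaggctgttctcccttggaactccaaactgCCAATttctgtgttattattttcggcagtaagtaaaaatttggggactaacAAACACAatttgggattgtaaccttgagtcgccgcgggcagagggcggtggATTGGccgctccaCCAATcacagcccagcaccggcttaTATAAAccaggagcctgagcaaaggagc
A motif match is a description of these letters and was not tested as a binding site.

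Histone transcripts made up 0.0773% and 0.120% of the deposited TPM in MBC1 and MBC2, 1.10% in the library labelled MBC3, and 0.294%, 0.354%, 0.393% and 0.478% in PC1 to PC4. All PCs were thus above MBC1 and MBC2 and below MBC3. In bulk samples, more cells that hold these mRNAs and more of them per cell cannot be told apart. The PC mean of 0.380% ± 0.0771 (SD, n = 4) was 3.86 times the mean of MBC1 and MBC2, and with all 3 MBC libraries the MBC mean was 0.433% ± 0.579 (SD, n = 3). With immunoglobulin genes taken out of the total, the shares were 0.0798%, 0.123% and 1.12% in MBCs and 0.667% to 0.944% in PCs.

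On the scaled values, the library labelled MBC3 lay above PC1 to PC3 and below PC4. The 68 genes summed to 424 in MBC1, 806 in MBC2 and 5364 in MBC3, and to 4629, 5255, 4833 and 6666 scaled TPM in PC1 to PC4. The PC mean, 5346 ± 918 (SD, n = 4), was 8.69 times the mean of MBC1 and MBC2, and MBC3 was 1.00 times the PC mean. Within the more frequent title prefix, MBC1 and MBC2 lay below PC1 to PC3 on either scale. Within the other prefix, MBC3 was above PC4 in deposited share and below it in scaled sum, so the order of that pair depends on the scaling.

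**Figure D1:**
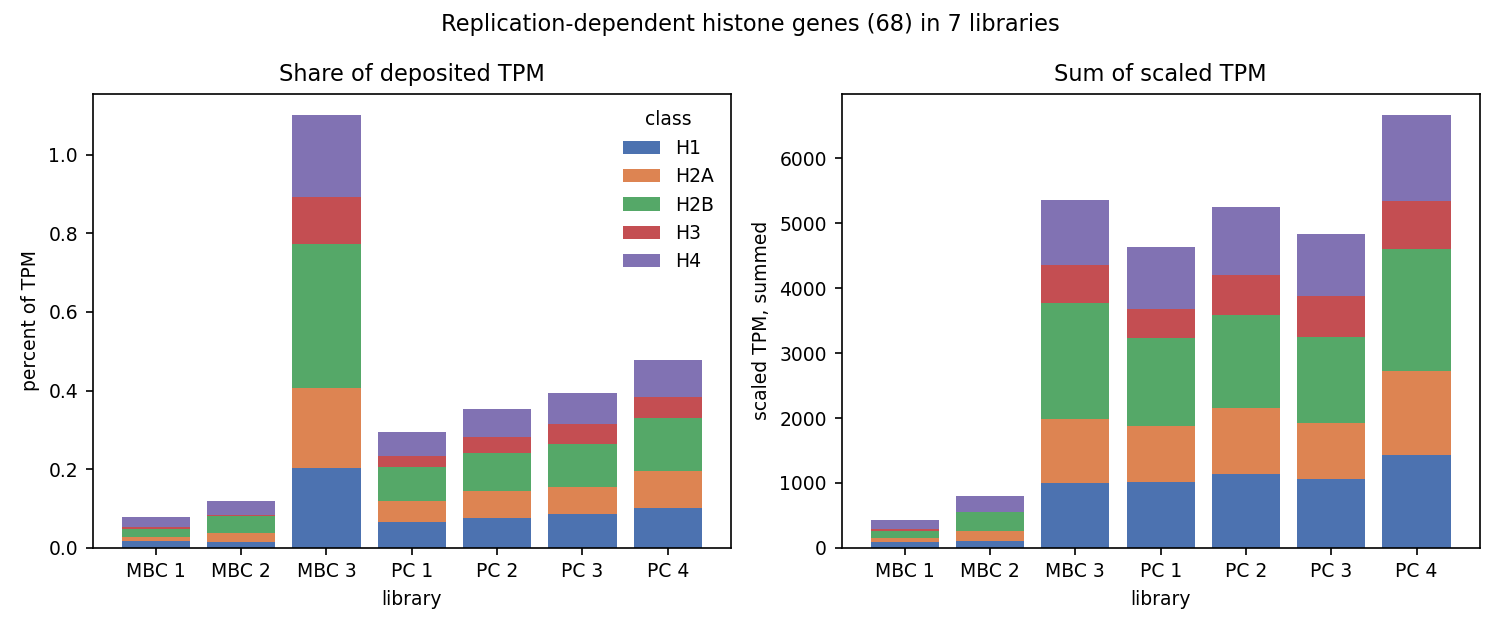
Replication-dependent histone transcripts in each of 7 libraries, stacked by class, as percent of deposited TPM (left) and as summed scaled TPM (right). On the left MBC3 is highest at 1.10%, and on the right it lies at 5364, between PC3 at 4833 and PC4 at 6666, while MBC1 and MBC2 are lowest in both.

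Among other RNAs without a poly(A) tail, small RNAs and ribosomal RNA ran in different directions as shares of deposited TPM. Immunoglobulin transcripts lower these shares in PCs. The small RNAs were not put on the scaled values, so their order between PCs and MBCs is given for deposited TPM only. Small nucleolar and Cajal body RNAs with 6 further non-coding RNAs took 0.0365% and 0.0434% of TPM in MBC1 and MBC2, 0.0334% in MBC3 and 0.0229% to 0.0341% in PCs. The library with the highest histone share was thus below MBC1 and MBC2 in this class of RNA. Ribosomal RNA took 7.32% and 7.82% in MBC1 and MBC2, 17.0% in MBC3 and 12.4% to 16% in PCs. Like the histone share, it was thus lower in MBC1 and MBC2 than in the other libraries. The order was not the same throughout, as PC3 was above PC2 in histone share (0.393% against 0.354%) and below it here (12.5% against 12.8%). The part of ribosomal RNA in the result was not tested.

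Most of the 68 genes showed the same order. Every PC library was above both MBC1 and MBC2 for 51 genes on the scaled values and for 46 on deposited TPM, where 25.6% of the 11573 genes tested and 17.4% of genes above 0 in any library did so on the scaled values. The library labelled MBC3 lay inside the PC range for 48 genes, above it for 13 and below it for 7 on the scaled values. There 23.7% of tested genes had MBC3 above all PCs. On deposited TPM MBC3 lay above the PC range for 58 genes. The size factor of MBC3 was 2.05 against 0.636 to 0.813 in PCs, so genes in general stand higher in it on that scale. No share of all genes was taken for the 58 or the 46 on deposited TPM. PCs lay above all 3 MBC libraries for 7 genes and below all 3 for none, where 13% and 8.68% of tested genes did so (8.65% above among the 21326 genes above 0 in any library). In MBC1 and MBC2, 40 and 27 genes were above 0 and 26 were listed at 0 in both, whereas 64 were above 0 in MBC3 and 59 to 64 in the PCs. At the estimated depths the median gene had 2.90 reads in MBC1, 0 in MBC2, 226 in MBC3 and 62.1 to 172 in the PCs, so low levels in MBC1 and MBC2 rest on few reads.

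**Figure D2:**
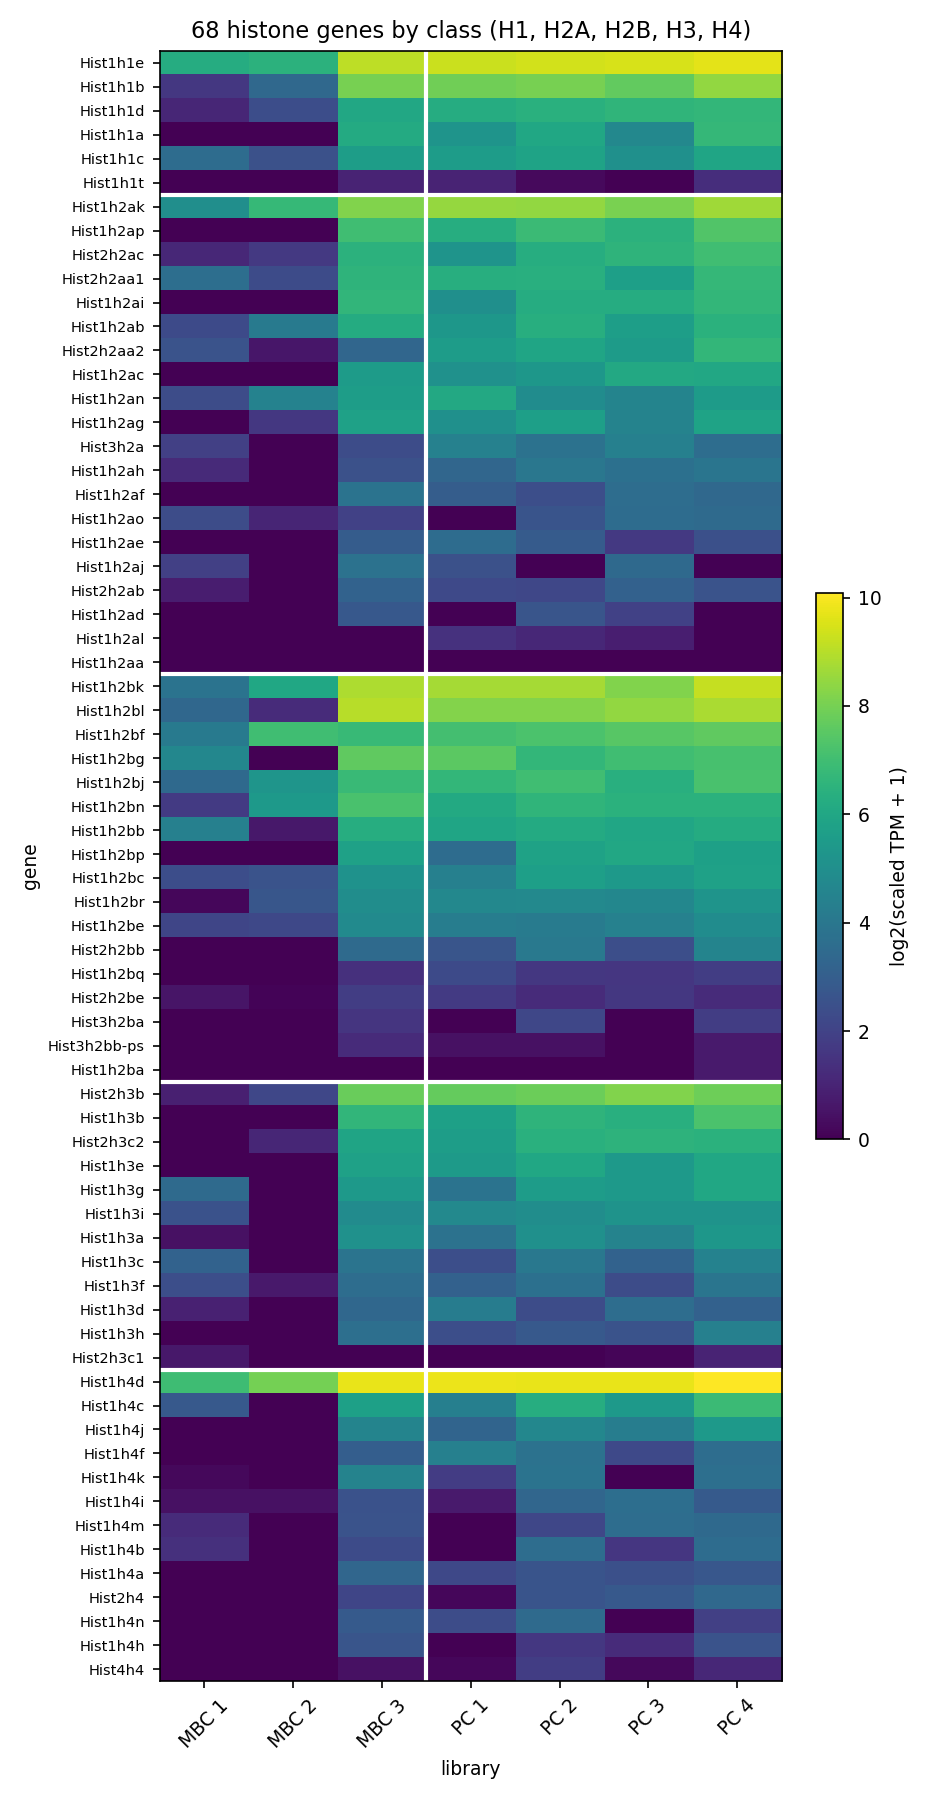
Level of each of the 68 histone genes (rows, grouped by class and ordered by mean level) in each library (columns), as log2(scaled TPM + 1). MBC1 and MBC2 are dark in most rows, with 26 genes listed at 0 in both, and MBC3 resembles the PC libraries.

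Across the 68 genes, log2 levels in the library labelled MBC3 correlated with those in PCs at Pearson r = 0.917 to 0.942, about as PCs did with each other (0.900 to 0.971). Its r with MBC1 was 0.592 and with MBC2 0.641, and r between MBC1 and MBC2 was 0.686. These are descriptions over genes, which share library and length. Over all 11573 tested genes r between MBC1 and MBC2 was 0.675. There MBC3 correlated with PCs at 0.700 to 0.777 and with MBC1 and MBC2 at 0.687 and 0.681. The PCs correlated with each other at 0.850 to 0.957 over these genes.

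The fit over all libraries called few of these genes. With limma on log2(scaled TPM + 1) for genes at 1 TPM or more in at least 3 libraries, and calls at adjusted p under 0.05 with a log2 change of 1 or more, 61 members were tested, 3 were called higher in PCs and 0 lower, where 6.41% and 2.14% of all tested genes were called. At an unadjusted p under 0.05, 34 were higher and 0 lower, against 15.3% of all genes higher. Their median log2 change was 1.95, with 60 of 61 above 0, and that of all tested genes was 0.14. Without MBC3, 58 members were tested, 44 were called higher and 0 lower, where 15.1% and 8.2% of genes were called, and the medians were 3.04 and 0.21. With the shared title codes as a block, 18 were called higher without MBC3 and 1 over all libraries. Of these 44 genes 15 were listed at 0 in both remaining MBC libraries. They entered the fit through the PCs alone and had to differ, and another 15 were at 1 TPM or more in both. Of the 61 members tested over all libraries, 24 were under 1 TPM in MBC1 and MBC2. Without MBC3 these could enter the fit through the PCs alone, and no gene could enter it through MBCs alone. For the 63 genes with a single annotated transcript, tested or not, the median ratio of the PC mean to the mean of MBC1 and MBC2 was 7.58 when means below the 3-read floor were set to it, and 56 of them exceeded 2.

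**Figure D3:**
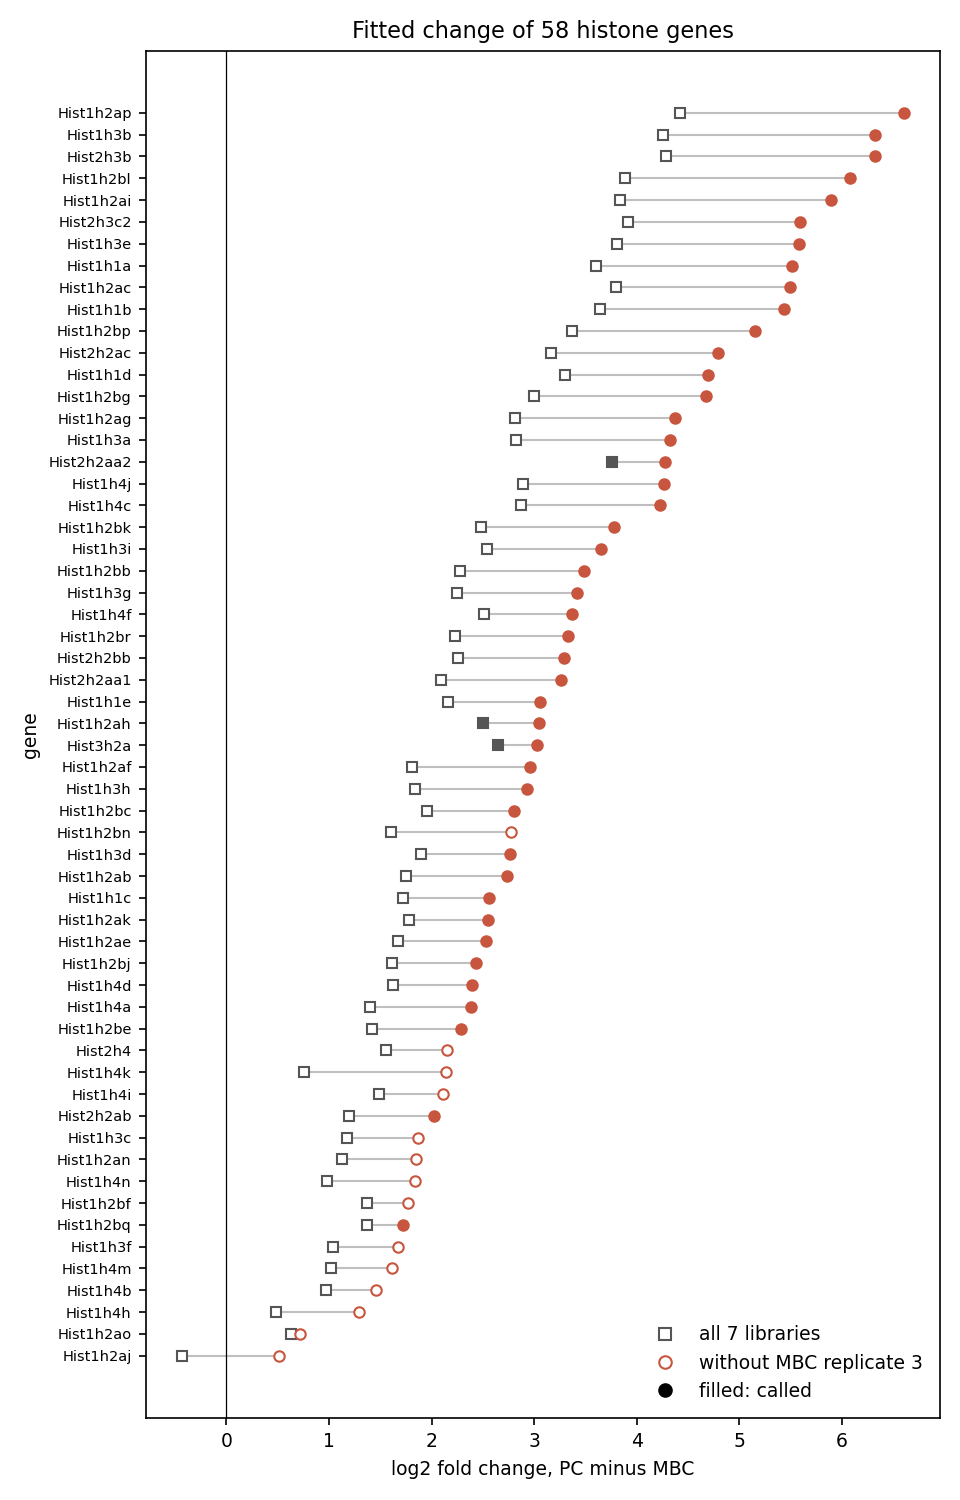
Fitted log2 fold change (PC minus MBC) of the 58 histone genes tested in both fits, with squares for all 7 libraries and circles for the fit without MBC3. Filled symbols are called: 3 squares and 44 circles.

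The linker histone genes, whose products bind linker DNA and compact chromatin, had summed scaled TPM of 89.9, 108 and 995 in MBC1 to MBC3 and 1015 to 1425 in PCs. Most of this was Hist1h1e, at chr13:23620629-23622558. Hist1h1e was at 75.8, 89.7 and 549 scaled TPM in MBC1 to MBC3 and at 616, 672, 705 and 810 in PC1 to PC4. PCs did not overlap MBCs for it, and its log2 change was 2.16 ± 0.61 (SE; adjusted p = 0.061, not called) over all libraries and 3.06 ± 0.27 (adjusted p = 3.5e-04) without MBC3. Its annotated transcript overlaps Hist1h2be on the same strand, and 28.4% of its 75-base windows occur in another member, so its reads could be split.

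Hist1h1b, another somatic linker histone gene, was nearly silent in the first 2 MBC libraries. It was at 2.14 and 9.71 scaled TPM in MBC1 and MBC2, 260 in MBC3 and 240, 256, 201 and 350 in PC1 to PC4. MBC3 lay inside the PC range, and the log2 change was 3.64 ± 1.19 (SE; adjusted p = 0.098) over all libraries and 5.44 ± 0.49 (adjusted p = 4.3e-04) without MBC3. No 75-base window of this transcript occurs in another member, though shorter or inexact matches were not searched. Hist1h1a, also without shared windows, was listed at 0 in MBC1 and MBC2 and was at 71.0 in MBC3 and 35.9, 64.3, 25.1 and 103 scaled TPM in PC1 to PC4. Its adjusted p was 0.14 over all libraries and 9.4e-04 without MBC3, a fit it entered through the PCs alone, so that it had to differ.

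Hist1h1c is known to give polyadenylated mRNA in differentiated cells as well as the stem-loop form. It was at 10.8, 4.65 and 47.6 scaled TPM in MBC1 to MBC3 and at 47.3, 56.8, 32.5 and 59.8 in PC1 to PC4. MBC1 and MBC2 were below all PCs and MBC3 was among them, with a log2 change of 1.72 ± 0.66 (SE; adjusted p = 0.15) over all libraries and 2.56 ± 0.43 (adjusted p = 0.0063) without MBC3. Of the remaining linker genes, Hist1h1d was at 1.10, 4.24 and 65.6 in MBCs and 75.3 to 101 in PCs, and the testis gene Hist1h1t reached at most 1.48 scaled TPM in any library. In the fit without MBC3 all 5 linker genes tested were called higher, where 15.1% of all genes were.

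The H2A genes summed to 67.9, 154 and 991 scaled TPM in MBC1 to MBC3 and to 857 to 1307 in PCs. The 3 members called over all libraries were all H2A genes. Hist2h2aa2 (chr3:96239749-96240276) was at 5.03, 0.519 and 8.98 in MBC1 to MBC3 and at 47.0, 59.3, 45.3 and 103 scaled TPM in PC1 to PC4. It rose by a log2 change of 3.76 ± 0.64 (SE; adjusted p = 0.0057), and the groups did not overlap. All of its 75-base windows also occur in Hist2h2aa1, which was at 93.9 in MBC3 and 50.9 to 103 in PCs, so the division of reads between these copies is uncertain. Without MBC3 the log2 change was 4.27 ± 0.60 (SE; adjusted p = 0.0030). Summed over the pair, the levels were 16.6, 4.51 and 103 in MBC1 to MBC3 and 126, 141, 96.2 and 206 scaled TPM in PC1 to PC4, and MBC3 then lay inside the PC range.

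Hist3h2a (chr11:58954685-58956830), from the small Hist3 cluster, had a transcript with almost no windows in common with other members (0.82%). It was at 2.72, 0 and 4.11 scaled TPM in MBC1 to MBC3 and at 20.9, 12.9, 20.3 and 11.2 in PC1 to PC4. The groups did not overlap, and it rose by a log2 change of 2.65 ± 0.64 (SE; adjusted p = 0.032), or 3.03 ± 0.61 (adjusted p = 0.012) without MBC3. It overlaps Trim17 on the same strand, which was at or below 0.418 scaled TPM in every library. Hist1h2ah was at 1.30, 0 and 4.74 in MBC1 to MBC3 and at 9.14, 15.2, 12.1 and 14.1 in PC1 to PC4, and rose by 2.51 ± 0.64 (SE; adjusted p = 0.040), or 3.04 ± 0.52 (adjusted p = 0.0064) without MBC3, with no overlap of groups. The calls of Hist3h2a and Hist1h2ah over all libraries were lost with TPM as deposited (adjusted p = 0.14 and 0.16), without any one PC library and with either block, and that of Hist1h2ah also without MBC1 or MBC2 (adjusted p = 0.082 and 0.072), whereas Hist2h2aa2 stayed called in each of these fits. Of the windows of Hist1h2ah 90% occur in other members.

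Among the H2A genes Hist1h2ak was the most abundant. It was at 30.7, 107 and 293 scaled TPM in MBC1 to MBC3 and at 361, 355, 268 and 400 in PC1 to PC4, so that only MBC3 reached the PC range. Its log2 change was 1.78 ± 0.63 (SE; adjusted p = 0.12) over all libraries and 2.55 ± 0.48 (adjusted p = 0.0090) without MBC3. Hist1h2ap, Hist1h2ai and Hist1h2ac were listed at 0 in MBC1 and MBC2. Hist1h2ap was at 128 in MBC3 and 77.2, 118, 87.4 and 164 in PC1 to PC4, Hist1h2ai at 98.7 and 31.6, 74.7, 74.6 and 101, and Hist1h2ac at 44.9 and 33.3, 39.3, 66.9 and 65.1 scaled TPM. MBC3 was inside the PC range for all of these genes, with adjusted p of 0.10, 0.13 and 0.085 over all libraries and 1.1e-04, 3.4e-04 and 2.5e-04 without MBC3. These genes entered the fit without MBC3 through the PCs alone, so there they had to differ. Hist1h2ap shares 92.6% of its windows with Hist1h2ao, and the pair summed to 4.04 and 1.06 in MBC1 and MBC2, 131 in MBC3 and 77.2 to 174 in PCs. At the other end, the testis gene Hist1h2aa was listed at 0 in all 7 libraries and Hist1h2al reached at most 1.71 scaled TPM. Without MBC3, 14 of 17 H2A genes tested were called higher, where 15.1% of all genes were.

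The H2B genes took the largest part of histone TPM in MBC3, at 33.2%, and 27.4% to 29.3% in PCs, and summed to 104, 289 and 1783 scaled TPM in MBC1 to MBC3 and 1334 to 1874 in PCs. Hist1h2bk was the most abundant in PCs. It was at 13.4, 63.6 and 460 in MBC1 to MBC3 and at 425, 429, 293 and 582 scaled TPM in PC1 to PC4. MBC3 lay inside the PC range, and the log2 change was 2.48 ± 0.93 (SE; adjusted p = 0.14) over all libraries and 3.78 ± 0.58 (adjusted p = 0.0042) without it. Hist1h2bl showed a wider gap, at 9.31, 1.34 and 517 in MBC1 to MBC3 and 295, 298, 346 and 447 in PC1 to PC4. MBC3 was above every PC for it on the scaled values, and the log2 change was 3.88 ± 1.44 (SE; adjusted p = 0.14, not called) over all libraries and 6.08 ± 0.55 (adjusted p = 4.0e-04) without MBC3.

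Hist1h2bf differed from these genes in that MBC2 was close to the PCs. It was at 16.4, 128 and 110 scaled TPM in MBC1 to MBC3 and at 133, 148, 179 and 195 in PC1 to PC4, and its log2 change was not called with MBC3 (1.37 ± 0.63, SE; adjusted p = 0.22) or without it (1.77 ± 0.69; adjusted p = 0.10). Its neighbor in the same cluster, Hist1h2bg, was at 24.4, 0 and 196 in MBC1 to MBC3 and at 184, 101, 126 and 143 in PC1 to PC4. Of the windows of Hist1h2bf 38% occur in Hist1h2bg, and MBC2, in which the former was high, was listed at 0 for the latter. Hist1h2bg had a log2 change of 2.995 ± 1.38 (SE; adjusted p = 0.22, not called) over all libraries and 4.68 ± 1.05 (adjusted p = 0.018) without MBC3. Hist1h2bj was at 10.0, 37.7 and 114 in MBC1 to MBC3 and 103, 128, 80.7 and 145 scaled TPM in PC1 to PC4, with MBC3 among the PCs (adjusted p = 0.18 with and 0.014 without MBC3).

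Hist1h2bp was listed at 0 in MBC1 and MBC2 and was at 54.3 in MBC3 and 10.9, 55.8, 65.7 and 52.6 scaled TPM in PC1 to PC4, where PC1 was the lowest of the PCs. Its adjusted p was 0.15 over all libraries and 0.0031 without MBC3, a fit it entered through the PCs alone, so that it had to differ. Hist1h2bc and Hist2h2be, like Hist1h1c, are known for polyadenylated transcripts in differentiated cells. Hist1h2bc was at 4.22, 5.01 and 33.9 in MBC1 to MBC3 and at 19.9, 50.2, 42.4 and 53.6 in PC1 to PC4, with a log2 change of 1.95 ± 0.68 (SE; adjusted p = 0.12, not called) over all libraries and 2.81 ± 0.47 (adjusted p = 0.0061) without MBC3. Hist2h2be stayed low everywhere, at 0.472, 0.0809 and 2.59 in MBC1 to MBC3 and 2.30, 1.34, 2.13 and 1.37 scaled TPM in PC1 to PC4, and was not called over all libraries (adjusted p = 0.51) or tested without MBC3. The testis gene Hist1h2ba was above 0 in PC4 alone, at 0.669. Of 13 H2B genes tested without MBC3, 11 were called higher, where 15.1% of all genes were.

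The plot of the most abundant members shows how often MBC3 fell among the PCs.

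**Figure D4:**
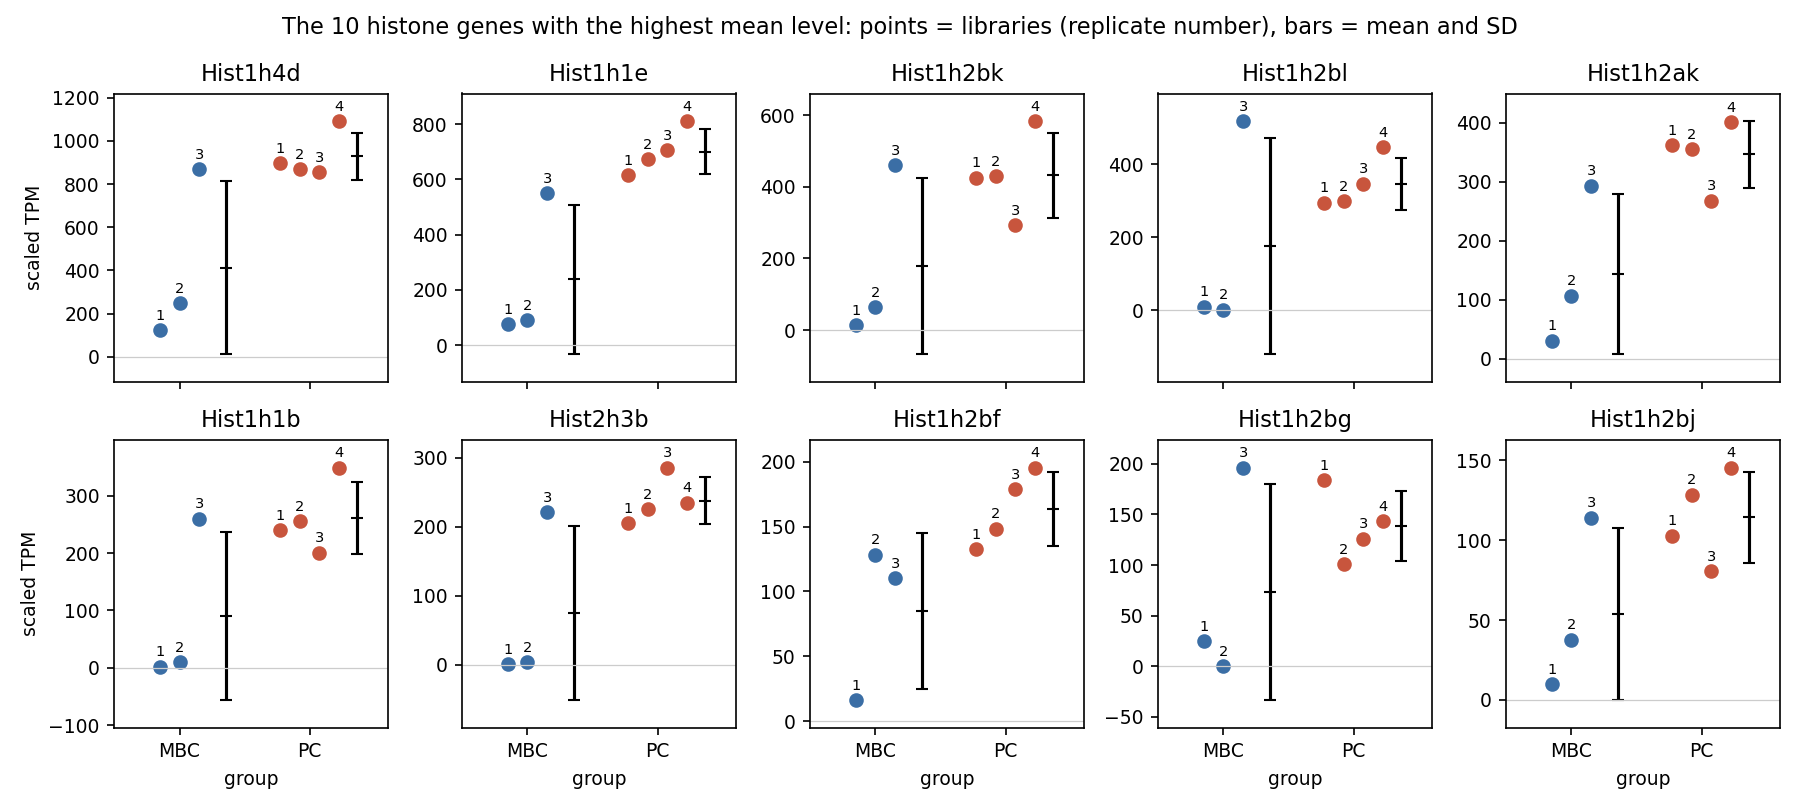
Scaled TPM of the 10 histone genes with the highest mean level, with a point for each library labelled by replicate number, and the mean and SD of 3 MBC and 4 PC libraries beside them. MBC1 and MBC2 lie below all PCs in every panel, Hist1h2bf having the narrowest gap (128 in MBC2 against 133 in PC1), and the SD of MBCs reaches below 0 in several panels.

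The H3 genes, which carry many of the known histone modifications on their tails, showed the widest gap between MBC1, MBC2 and the PCs among the classes. They summed to 30.3, 5.12 and 584 scaled TPM in MBC1 to MBC3 and to 438, 614, 627 and 738 in PC1 to PC4. The PC mean of 604 ± 124 (SD, n = 4) was 34.1 times the mean of MBC1 and MBC2, where this ratio was 11.7 for H1, 9.12 for H2A, 7.64 for H2B and 5.61 for H4. H3 accordingly made up 7.16% and 0.636% of histone TPM in MBC1 and MBC2, 10.9% in MBC3 and 9.46% to 13.0% in PCs. Against MBC1 alone the H3 ratio was 19.9, and against MBC2 alone 118. For single genes, with means below the 3-read floor set to it, the median ratio was 22.3 for H3 and 20.8 for H1. No test was made between classes, and the H3 reads behind MBC1 and MBC2 were few.

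Hist2h3b (chr3:96268654-96269141) was the most abundant H3 gene. It was at 0.845, 3.38 and 221 scaled TPM in MBC1 to MBC3 and at 205, 226, 285 and 235 in PC1 to PC4, so that MBC3 was inside the PC range. Its log2 change was 4.29 ± 1.32 (SE; adjusted p = 0.081) over all libraries and 6.32 ± 0.39 (adjusted p = 1.1e-04) without MBC3. Hist2h3c2 was at 0, 1.13 and 58.6 in MBC1 to MBC3 and at 48.7, 83.3, 89.9 and 86.9 in PC1 to PC4, and Hist2h3b shares 78.5% of its windows with it. Hist1h3b and Hist1h3e were listed at 0 in MBC1 and MBC2. Hist1h3b was at 100 in MBC3 and 52.2, 94.8, 81.6 and 150 in PC1 to PC4, and Hist1h3e at 54.0 in MBC3 and 44.8, 63.1, 41.5 and 63.2 scaled TPM in PC1 to PC4. Adjusted p for Hist2h3c2, Hist1h3b and Hist1h3e was 0.071, 0.10 and 0.094 over all libraries and 2.4e-04, 1.7e-04 and 1.4e-04 without MBC3. Hist1h3b and Hist1h3e entered the fit without MBC3 through the PCs alone, so there they had to differ. MBC3 lay inside the PC range for all 12 H3 genes. Without it, 9 of 11 tested were called higher, where 15.1% of all genes were.

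The H4 class was dominated by a single gene, Hist1h4d (chr13:23581598-23582735), which was also the most abundant member in every library. It was at 122, 249 and 869 scaled TPM in MBC1 to MBC3 and at 898, 870, 855 and 1091 in PC1 to PC4. MBC1 and MBC2 were below all PCs and MBC3 was inside their range, with a log2 change of 1.63 ± 0.57 (SE; adjusted p = 0.12) over all libraries and 2.40 ± 0.35 (adjusted p = 0.0034) without MBC3. Hist1h4d made up 28.8% and 30.9% of all histone TPM in MBC1 and MBC2, 16.2% in MBC3 and 16.4% to 19.4% in PCs. Its transcript is one of the extended models, with 770 bases after the stem-loop shown above, and 3.67% of its windows occur in other members.

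The other 12 H4 genes were low. The highest of them in PCs, Hist1h4c, was at 6.08, 0 and 51.9 scaled TPM in MBC1 to MBC3 and at 19.3, 76.7, 41.6 and 115 in PC1 to PC4. Of the 13 H4 genes 7 were listed at 0 in both MBC1 and MBC2. Without MBC3, 5 of 12 tested were called higher, where 15.1% of all genes were. Genes listed at 0 in both could enter that fit through the PCs alone, so such counts do not rank the classes. H4 genes encode nearly the same protein, and levels of single genes depend on how reads were divided among them.

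PCs exceeded MBC1 and MBC2 whether or not the annotated transcript ran past the stem-loop. The 23 genes whose models ran on for 60 bases or more summed to 261 and 354 scaled TPM in MBC1 and MBC2, 2053 in MBC3 and 2270 ± 286 (SD, n = 4) in PCs, a PC mean 7.39 times that of MBC1 and MBC2. For the 21 genes whose models ended sooner the corresponding sums were 99.3, 256, 1476 and 1467 ± 387, with a ratio of 8.25. For the 24 without the element in their model they were 64.0, 196, 1835 and 1609 ± 256, with a ratio of 12.4. These ratios were not tested against each other.

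All 13 pairs of members whose start sites lay within 1 kb in divergent orientation joined an H2A with an H2B gene. The partners rarely stood at the same level. Of the 11 pairs with both genes at 1 scaled TPM or more in PCs, 7 differed more than 3-fold in PC mean, and the H2B gene was the higher in 6 of 11. Hist1h2bk at 432 ± 118 (SD, n = 4) scaled TPM faced Hist1h2ah at 12.6 ± 2.66 across 302 bases, most of which are printed above, and Hist1h2bf at 164 ± 28.5 faced Hist1h2ad at 2.02 ± 2.53 across 185 bases. In contrast Hist1h2ac and Hist1h2bc, at 51.2 ± 17.4 and 41.5 ± 15.1, differed by less than their spread. Scaled TPM is per annotated length, and Hist1h2ah and Hist1h2ad are members with over 50% of windows in another gene, so these levels are uncertain.

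Genes that transcribe histone genes and process their mRNA gave no call. Of 20 tested in a list of 22, 0 were called over all libraries, where 6.41% and 2.14% of all genes were called higher and lower. At these shares few calls would fall among 20 genes. Without MBC3 0 were called as well, where 15.1% and 8.2% of all genes were. Slbp, which encodes the protein that binds the stem-loop, was at 35.9, 16.3 and 90.9 scaled TPM in MBC1 to MBC3 and at 38.9, 44.3, 44.9 and 53.9 in PC1 to PC4. It was highest in MBC3, and PCs exceeded MBC1 and MBC2 by little (adjusted p = 0.81 over all libraries and 0.14 without MBC3). Npat, the coactivator of histone gene transcription, was at 2.85, 9.84 and 10.5 in MBCs and 6.29 to 9.36 in PCs, and Casp8ap2, a component of the histone locus body, at 15.5, 12.1 and 24.3 in MBCs and 14.8 to 24.0 in PCs. Both groups overlapped for these genes, with adjusted p of 0.88 and 0.81. Rnu7, the gene of the U7 RNA, was listed at 0 in all libraries.

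Chaperones that place new histones on replicating DNA gave 0 calls of 15 tested over all libraries. In that fit 6.41% and 2.14% of all genes were called higher and lower. Without MBC3, Asf1b, Hat1, Mcm2 and Mms22l were called higher and Nap1l4 lower in PCs, where 15.1% and 8.2% of all genes were called. Asf1b, which hands H3 and H4 to the assembly factor CAF-1, was at 0.834, 0.0607 and 29.5 scaled TPM in MBC1 to MBC3 and at 5.51, 12.7, 22.2 and 18.1 in PC1 to PC4 (log2 change 3.23 ± 0.63, SE; adjusted p = 0.011 without MBC3 and 0.32 with it). The CAF-1 subunit genes Chaf1a and Chaf1b were called in neither fit. Chaf1a was at 1.27, 7.81 and 13.6 in MBCs and 1.37 to 8.82 in PCs, and Chaf1b at 3.58, 0 and 14.7 in MBCs and 2.57 to 6.22 in PCs. Their log2 changes without MBC3 were 0.17 and 1.17 (adjusted p = 0.89 and 0.24, limma), and adjusted p with it was 0.80 and 0.87.

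Among variants made outside S phase, H1f0, which encodes a linker histone typical of differentiated cells, was the 1 gene of 9 tested that was called over all libraries. Of all tested genes 6.41% were called higher there, so 1 call in a list of 9 is not unusual. H1f0 was at 5.45, 7.90 and 6.76 scaled TPM in MBC1 to MBC3 and at 32.8, 37.8, 22.2 and 24.0 in PC1 to PC4, and rose by a log2 change of 1.95 ± 0.39 (SE; adjusted p = 0.015), or 1.94 ± 0.39 (adjusted p = 0.012) without MBC3. The call was lost without PC2 or PC4 and with either block. MBC3 lay between MBC1 and MBC2 for this gene. H2afx, which encodes the variant phosphorylated at DNA breaks, was at 17.1, 10.9 and 291 in MBC1 to MBC3 and at 183, 128, 197 and 197 in PC1 to PC4, so that MBC3 was the highest (adjusted p = 0.19 with and 4.9e-04 without MBC3).

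H2afz, which encodes H2A.Z, was at 95.5, 210 and 1097 scaled TPM in MBC1 to MBC3 and at 444, 695, 412 and 950 in PC1 to PC4, with adjusted p of 0.40 over all libraries and 0.019 without MBC3. H3f3a and H3f3b encode the same replacement H3, which is placed independently of replication. H3f3a was at 323, 404 and 849 in MBCs and 234, 503, 245 and 495 in PCs, with overlapping groups (adjusted p = 0.57). H3f3b was at 63.3, 80.5 and 168 in MBCs and 130, 185, 184 and 164 in PCs, and was called without MBC3 (log2 change 1.19 ± 0.29, SE; adjusted p = 0.023) but not with it (adjusted p = 0.25). Of 10 genes for deposition outside replication, 0 were called over all libraries, where 6.41% and 2.14% of all genes were called higher and lower. Atrx was called lower without MBC3, where 8.2% of all genes were.

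S phase and division genes were low in MBC1 and MBC2 and highest in MBC3 in many cases. Of 20 S phase and division genes, 0 were called over all libraries, where 6.41% of all genes were called higher, and 8 were called higher without MBC3, where 15.1% were. All PCs were above MBC1 and MBC2 for 12 of the 20 (25.6% of all tested genes), and MBC3 was above all PCs on the scaled values for 15 of the 20, where it was above all PCs for 13 of the 68 histone genes and 23.7% of all tested genes. Mki67, a gene of cycling cells, was at 41.2, 62.0 and 269 scaled TPM in MBC1 to MBC3 and at 190, 188, 238 and 195 in PC1 to PC4 (adjusted p = 0.24 with and 0.0036 without MBC3). Rrm2, which encodes a subunit of ribonucleotide reductase, was at 15.6, 2.84 and 88.5 in MBCs and 58.4, 102, 82.7 and 99.9 in PCs (adjusted p = 0.15 and 0.0063). Pcna, the sliding clamp of DNA polymerase, was at 50.3, 71.9 and 188 in MBCs and 91.2 to 161 in PCs, and Ccne2, a cyclin of S phase entry, at 8.49, 1.93 and 13.0 in MBCs and 4.06 to 8.60 in PCs. Neither was called without MBC3 (adjusted p = 0.080 and 0.68). The part of cycling cells in the histone levels was not tested.

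**Figure D5:**
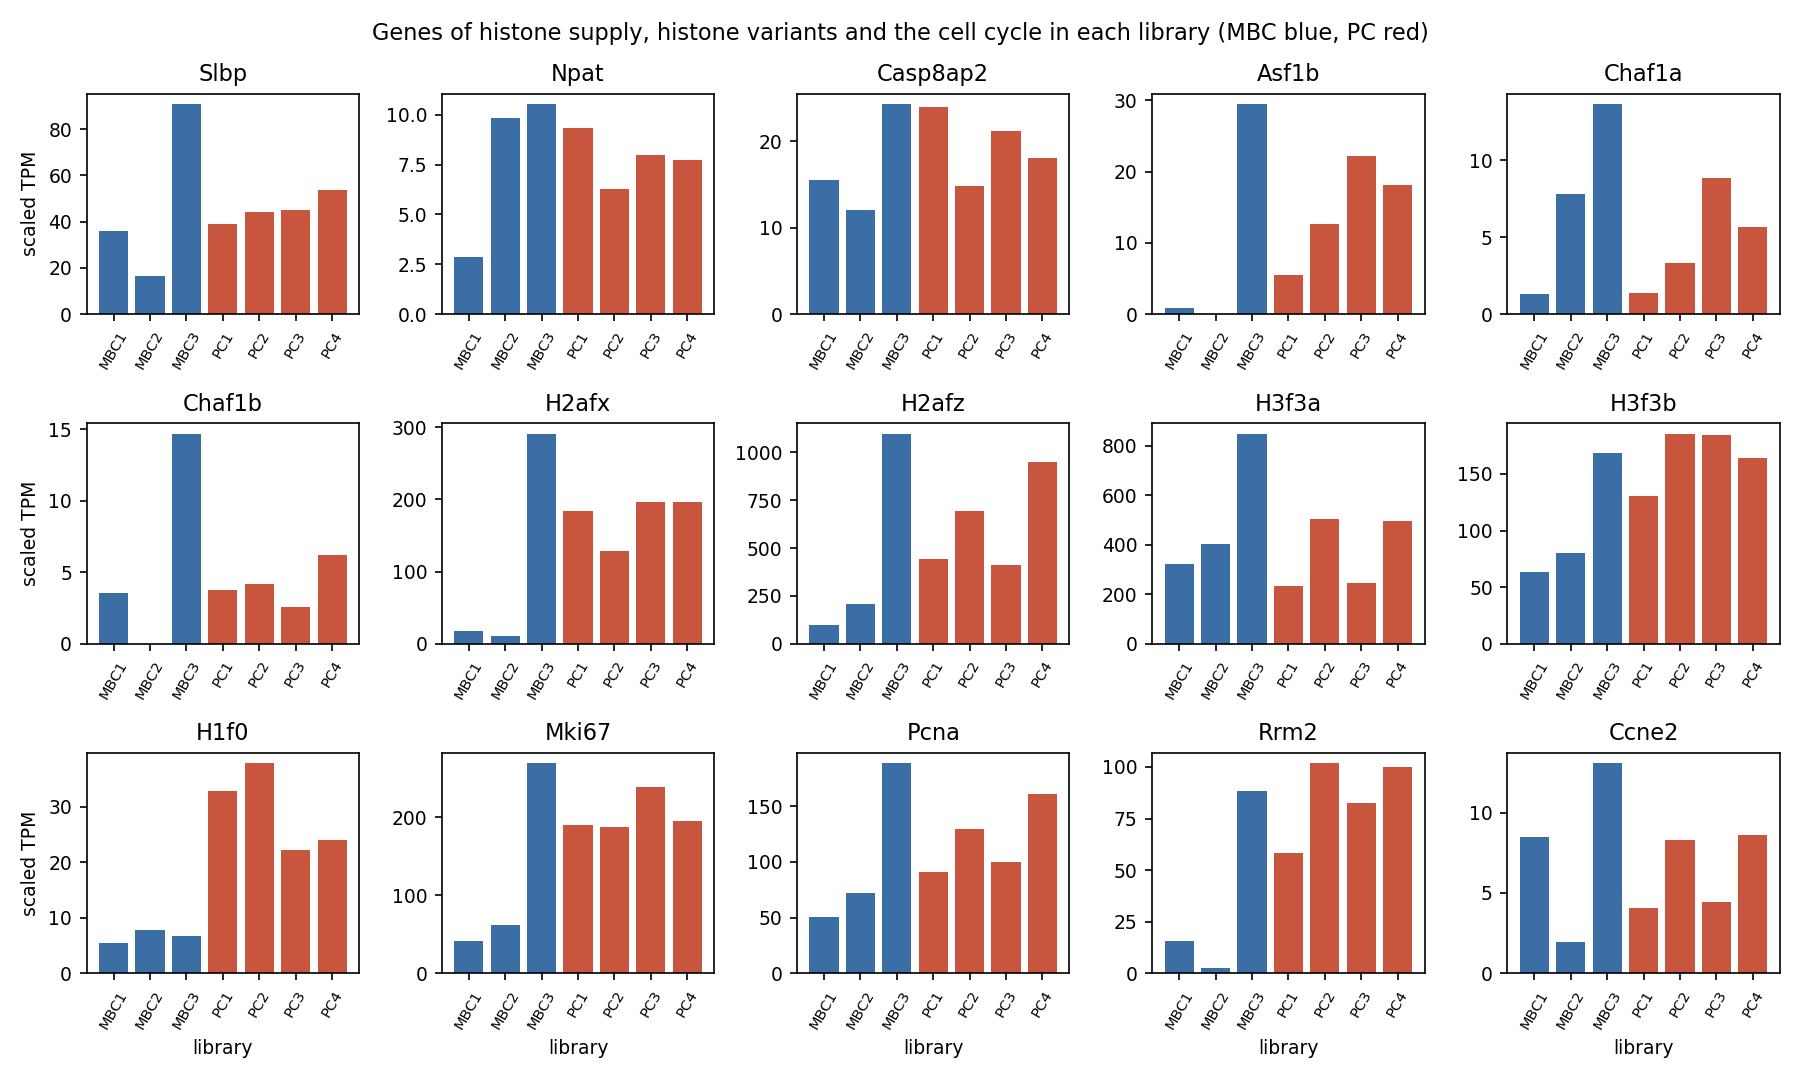
Scaled TPM in each library (MBC1 to MBC3 in blue, PC1 to PC4 in red) of 15 genes for histone mRNA processing, histone deposition, histone variants and the cell cycle. MBC3 is the highest library for most of them, as for H2afx at 291, and H1f0 is higher in all PCs (22.2 to 37.8) than in any MBC library (5.45 to 7.90).

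Among the PCs the histone genes were most often highest in PC4. It was the highest of the 7 libraries for 35 of the 67 genes above 0, PC1 and PC3 for 7 each and PC2 for 5, while MBC3 was highest for 13. Of all tested genes MBC3 was the highest for 10.3%. Such a share was not taken for the PC libraries, so whether PC4 leads as often among other genes is not known. Across the PC libraries H1 made up 21.4% to 21.9%, H2A 17.7% to 19.6%, H2B 27.4% to 29.3%, H3 9.46% to 13.0% and H4 19.8% to 20.7% of histone TPM. MBC1 and MBC2 had 31.1% and 31.0% of H4, chiefly Hist1h4d, and MBC3 had 18.8%. The 10 most abundant genes together made up 66.0% to 74.7% of histone TPM in PCs, 66.9% in MBC3, and 72% and 85.5% in MBC1 and MBC2.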

How the data were processed

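Per the labels and the submitters' processing notes, sequenced reads were handled with STAR 2.5.2a, RSEM 1.3.0 and DESeq2 1.18.1 on GRCm38; the annotation release is not given in the sources used here. The authors deposited TPM for 48795 genes in 7 libraries, rounded to 2 decimals. Groups and replicate numbers came from the sample descriptions. Symbols, transcripts and coordinates were taken from GENCODE M21 (48349 genes matched) and promoters from RefSeq.

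Size factors scaled the TPM values as described above. The limma fit (version 3.58.1 in R 4.3.3; empirical Bayes with a mean-variance trend) took log2(scaled TPM + 1) of genes at 1 TPM or more in 3 libraries, with Benjamini-Hochberg adjustment over all tested genes, so fold changes of low genes are understated. The study's methods as used here state no test for these libraries. The fit was tested on simulated data. Tables and plots were made with Python.

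Reads per TPM were estimated from the steps of low values of genes with a single transcript, a step added once the data had been seen. Floors of 3 reads cover counting error only, since amplified reads without molecular identifiers are not independent molecules. Between 76.1% and 83.5% of low values lay within 0.15 of a whole read, where 30% would by coincidence. Near-identical copies were described by the share of 75-base windows that another member holds.

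Per-library values were given for the 10 members with the highest mean, up to 12 called over all libraries, up to 8 more called without MBC3, Hist1h1c, Hist1h2bc and Hist2h2be, and, outside the family, 15 listed genes. The members, lists and rule were chosen with earlier results of these data known. Hist2h2ac, Hist1h3g, Hist1h1d, Hist1h4c, Hist2h2aa1, Hist1h2ao, the marker gene Cd38, and the members at the low end of each class were named after their values were seen, as were the head-to-head pairs and the promoters printed.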

Additional observations from a re-analysis of the deposited data

Results flagged for a closer look

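In 2 of 46 groups of 4 PC libraries examined, 1 library lay far from the others by Dixon's ratio (gap to the nearest library over the whole range), where chance marks about 5% of groups. For Hist2h3c2 the ratio was 0.839, PC1 being at 48.7 scaled TPM and the others at 83.3 to 89.9. For Mki67 it was 0.852, PC3 being at 238 and the others at 188 to 195.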

How the results depend on the processing

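Over all libraries 3 histone genes were called higher in PCs, and this count was 1 with TPM as deposited, with immunoglobulin genes removed, with a pseudocount of 0.1 or with all genes above 0 tested, and 39 among the libraries of the more frequent title prefix. Leaving out 1 library at a time it ranged from 1 (without any one PC library) to 44 (without MBC3). With MBC3 left out it was 38 with TPM as deposited, 44 with immunoglobulin genes removed and 43 after quantile normalization, and 45, 43, 45, 39, 44 and 39 when MBC1, MBC2, PC1, PC2, PC3 or PC4 was left out as well; these combined settings were chosen after seeing the data, and where a single MBC library remained its spread was assumed to be that of the PCs. No setting called a histone gene lower. The median log2 change of tested histone genes, 1.95, was 3.20 with a pseudocount of 0.1, and with MBC3 left out 3.35 with immunoglobulin genes removed and 3.24, 3.25 and 3.24 without PC1, PC2 or PC3. With TPM as deposited it was 0.98, where the median of all genes moved from 0.14 to -0.91.

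Among all 11573 tested genes, 742 were called higher and 248 lower over all libraries, and 472 and 3018 with TPM as deposited. With MBC3 also left out, the latter were 925 and 2998 of 10748. Tested over all libraries were 20 genes for histone mRNA, 15 S phase chaperones, 9 variants and 10 genes for deposition outside replication. Of these genes, 1 was called in either direction over all libraries, 19 with TPM as deposited, 2 with immunoglobulin genes removed, 3 after quantile normalization, 7 within the more frequent prefix, and 0 (without PC2 or PC4) to 10 (without MBC3) leaving out 1 library at a time. With MBC3 left out the count was 23, 10 and 11 under the same 3 scalings, and 18, 13, 10, 5, 7 and 7 without a further library in the order above. For the S phase and division genes it was 0 over all libraries, 5 within the prefix and 0 to 8 leaving out 1 library at a time (8 without MBC3), and with MBC3 left out 3, 8 and 7 under these scalings and 11, 9, 9, 5, 5 and 5 without a further library. The histone share of TPM, PC minus MBC, was -0.053 percentage points, 0.352 with immunoglobulin genes removed from the total, 0.777 with mitochondrial and ribosomal RNA genes removed too, and 0.249 within the prefix, and leaving out 1 library at a time ranged from -0.23 (without MBC1) to 0.281 (without MBC3). Hist2h2be turned to -0.074 (adjusted p = 0.94, limma) with TPM as deposited. For the 24 histone genes followed singly, 362 of 610 values kept direction and side of the threshold, 223 newly passed it, 24 no longer did and 1 reversed. The cause of these changes was not tested.

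A replicate block by number called 1 histone gene, 0 genes for histone mRNA, deposition and variants and 0 S phase and division genes, and a replicate block by title code called 1, 0 and 0. With MBC3 left out the replicate block by title code called 18, 1 and 1. Deviations of same-numbered libraries from their group means correlated at 0.109, -0.0398 and -0.0832 and those of libraries with the same code at 0.109, -0.0044 and 0.222, so neither the numbers nor the codes, which the labels do not explain, were taken to pair the libraries. Over all genes, calls fell from 742 higher and 248 lower to 390 and 60 with the block by number and 434 and 83 by code, and were 472 and 3018 with TPM as deposited.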
